A study of Mus musculus with 12 samples.

Results

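The genes described here are 33 genes of the unfolded protein response and the integrated stress response, out of 17097 mouse genes that had a probe set of their own. They were chosen by name, from what their products are known to do but with earlier results of these data known, so that the list is not independent of the data, and all 33 were measured. They comprise 5 transcription factors, 4 targets of the integrated stress response, 5 chaperones of the endoplasmic reticulum (ER), 4 protein disulfide isomerases, 4 DnaJ and SDF2L1 co-chaperones, the secreted or luminal proteins MANF and CRELD2, 6 genes of ER-associated degradation and 3 of the translocon. Basal cells of the epidermis were compared in 3 regions of wounded tail skin of CD1 mice, a strain with no engineered allele named in the labels: the leading edge (LE), which is the front that covers the wound, the proliferative hub around it, and control skin taken far from the wound on wounded mice. Skin was taken at D4 and D7, the days 4 and 7 after a punch wound, with 2 arrays for each of the 6 groups. The LE and the hub were obtained with a narrow and a wider punch, which enrich for the regions and do not isolate them. Each sample pooled several mice, and 300 cells positive for α6-integrin and negative for CD34, a bulge antigen, were sorted from it. By their labels the arrays are biological replicates, and nothing says whether they came from separate pools, so the p values measure the spread between these arrays, which may be technical. Age and sex of the mice are not given in the labels.

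Proteins that enter the secretory pathway fold in the ER with the help of chaperones, and the unfolded protein response raises the capacity for folding when misfolded proteins accumulate there. Its sensors are IRE1, which splices the mRNA of the transcription factor XBP1, ATF6, which is cleaved into a transcription factor, and the kinase PERK. PERK belongs to the kinases of the integrated stress response, which lower general translation by phosphorylating eIF2α and favour translation of ATF4. ATF4 in turn drives genes of amino acid metabolism and stress regulators such as Trib3 and Ddit3, the gene for CHOP. The arrays read total mRNA of each gene. Splicing of Xbp1, cleavage of ATF6 and translation of ATF4 were not measured here.

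The values are log2 intensities that the authors had normalized. Array medians were 5.4 to 5.47 at D4 and 4.25 to 4.28 at D7, so regions were compared within a day, and the days only through differences made within them. A gene was called when its adjusted p was under 0.05 in limma, a linear model for arrays, with Benjamini-Hochberg adjustment over all 17097 genes. Every adjusted p and standard error (SE) below is from this moderated test on 2 arrays per group. Paired arrays within a group had r of 0.988 to 0.993 over probe sets (which are no replicates), and the members differed within groups by a median of 0.0985 to 0.166. The basal keratins Krt5 and Krt14 were bright on all 12 arrays, with lowest levels of 11.93 and 11.56. The bulge marker Cd34, which the sort selected against, lay below the median of every array, but was the only 1 of 6 bulge markers to do so. In control at D4 Krt15 read 10.01 and 10.52, Sox9 10.01 and 9.63 and Nfatc1 10.43 and 9.28. Of the 9 leukocyte markers 5, of the 7 fibroblast markers 4 and of the 5 plasma cell markers measured 3 lay below the median of every array. So did 1 of 5 sebocyte and 1 of 8 suprabasal markers, and 0 of 5 endothelial, 0 of 5 melanocyte and 0 of 7 basal markers. The share of all genes below it on every array was not computed, so these counts do not measure purity.

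Stretches of promoters are shown for 4 genes that rose in the LE and hold a binding motif known from this pathway, to show what such motifs look like in the genes that carry the result. The windows come from RefSeq (GRCm38.p6) and reach from 250 bases before to 50 bases after the annotated start, and 28 of the 33 genes had one. Motifs were searched on both strands. They were the ER stress response element (ERSE: CCAAT, any 9 bases, CCACG), ERSE-II (ATTGG, any base, CCACG), the UPR element (TGACG directly followed by TGG) and the composite C/EBP-ATF site of the ATF4 pathway (TGATG, any base, AA). Fixed letters of the motif found are in capitals, on the strand of the gene.
Creld2, chr15:88819480-88819578, plus strand, with ERSE read in reverse from -126 to -108: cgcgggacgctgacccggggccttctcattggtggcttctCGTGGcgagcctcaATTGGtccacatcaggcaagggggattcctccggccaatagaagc
Calr, chr8:84847035-84847133, minus strand, with ERSE read in reverse from -162 to -144: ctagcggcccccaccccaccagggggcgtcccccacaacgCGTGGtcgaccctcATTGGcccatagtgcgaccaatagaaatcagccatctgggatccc
Asns, chr6:7693210-7693272, minus strand, with the composite site from -23 to -16: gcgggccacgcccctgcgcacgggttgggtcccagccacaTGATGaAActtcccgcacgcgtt
Trib3, chr2:152344028-152344057, minus strand, with the composite site read in reverse from 15 to 22 after the start: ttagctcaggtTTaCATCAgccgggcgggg
ERSE was found in 9 of the 28 members with a window (32.1%), namely Hspa5, Hsp90b1, Calr, Canx, Pdia6, Dnajc3, Creld2, Syvn1 and Derl3, and in 20 of 13605 tested genes with a window (0.147%). ERSE-II was found in Dnajb11 and Herpud1 (7.14% of members, 0.0662% of tested genes). The composite site was found in Trib3, Chac1, Asns and Herpud1 (14.3% of members, 3.27% of tested genes), and the UPR element in 0 of 28 members and 0.97% of tested genes. Many of these genes are textbook targets of the pathway, so the motif share describes how they were chosen and was not tested. Of the 9 genes with ERSE, 5 were called in the LE at D4 and 4 at D7, beside 6 (30%) and 4 (20%) of the 20 tested genes with ERSE, which include them. The median change of these 9 in the LE was 0.47 at D4 and 0.38 at D7 on the log2 scale, beside 0.45 and 0.50 for the 19 members with a window and no ERSE.

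In the LE none of the stress response genes was called lower than control with all arrays. At D4 16 of the 33 genes were called higher, where 8.3% of all genes were called higher and 5.83% lower. At D7 18 were called higher, against 9.25% of all genes higher and 5.37% lower. These shares are also the background for the counts of each role group below. In the hub 0 of 33 were called at D4 (0.222% of all genes higher, 0.105% lower) and 0 at D7 (0.591% higher, 0.17% lower) in limma, although 8 and 11 members lay higher, and 0 lower, with an unadjusted p under 0.05 (6.9% and 8.28% of all genes higher). Between the wound regions, 4 members were called at D4 with the LE above the hub (2.61% of all genes higher, 2.15% lower) and 4 at D7 (1.33% higher, 1.4% lower), and 16 were higher at an unadjusted p under 0.05 at either time (8.86% and 8.48% of all genes). LE and hub were set against the same control arrays. Fewer cells of a type and less RNA per cell cannot be told apart in such samples.

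These counts rest on few arrays. The 16 genes called in the LE at D4 became 8 without LE D4 replicate 1. Of the 18 at D7, 5 were left without LE D7 replicate 1 (Trib3, Asns, Manf, Derl1 and Sec61b), and Dnajb9 was then called lower (-0.84, adjusted p = 0.0422). Without control D7 replicate 2 the count at D7 was 9. Of the 4 genes called against the hub, 2 were left at D4 without LE D4 replicate 1 or without hub D4 replicate 2. At D7 1 was left without LE D7 replicate 1, LE D7 replicate 2 or hub D7 replicate 1, and 0 without hub D7 replicate 2.

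The median change of the 33 genes in the LE was 0.47 at D4 and 0.49 at D7 on the log2 scale, beside 0.03 and 0.02 over all genes. In the hub it was 0.20 and 0.15, beside 0.01 and 0.02. The LE lay above control in 29 members at D4 and 28 at D7 (56.5% and 54.2% of all genes), and above the hub in 32 and 28 (56.3% and 52.6%). A graded order of means, LE above hub above control, was seen in 24 members at D4 (72.7%) and 22 at D7 (66.7%), and in 28.3% and 28.2% of all genes.

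**Figure D1:**
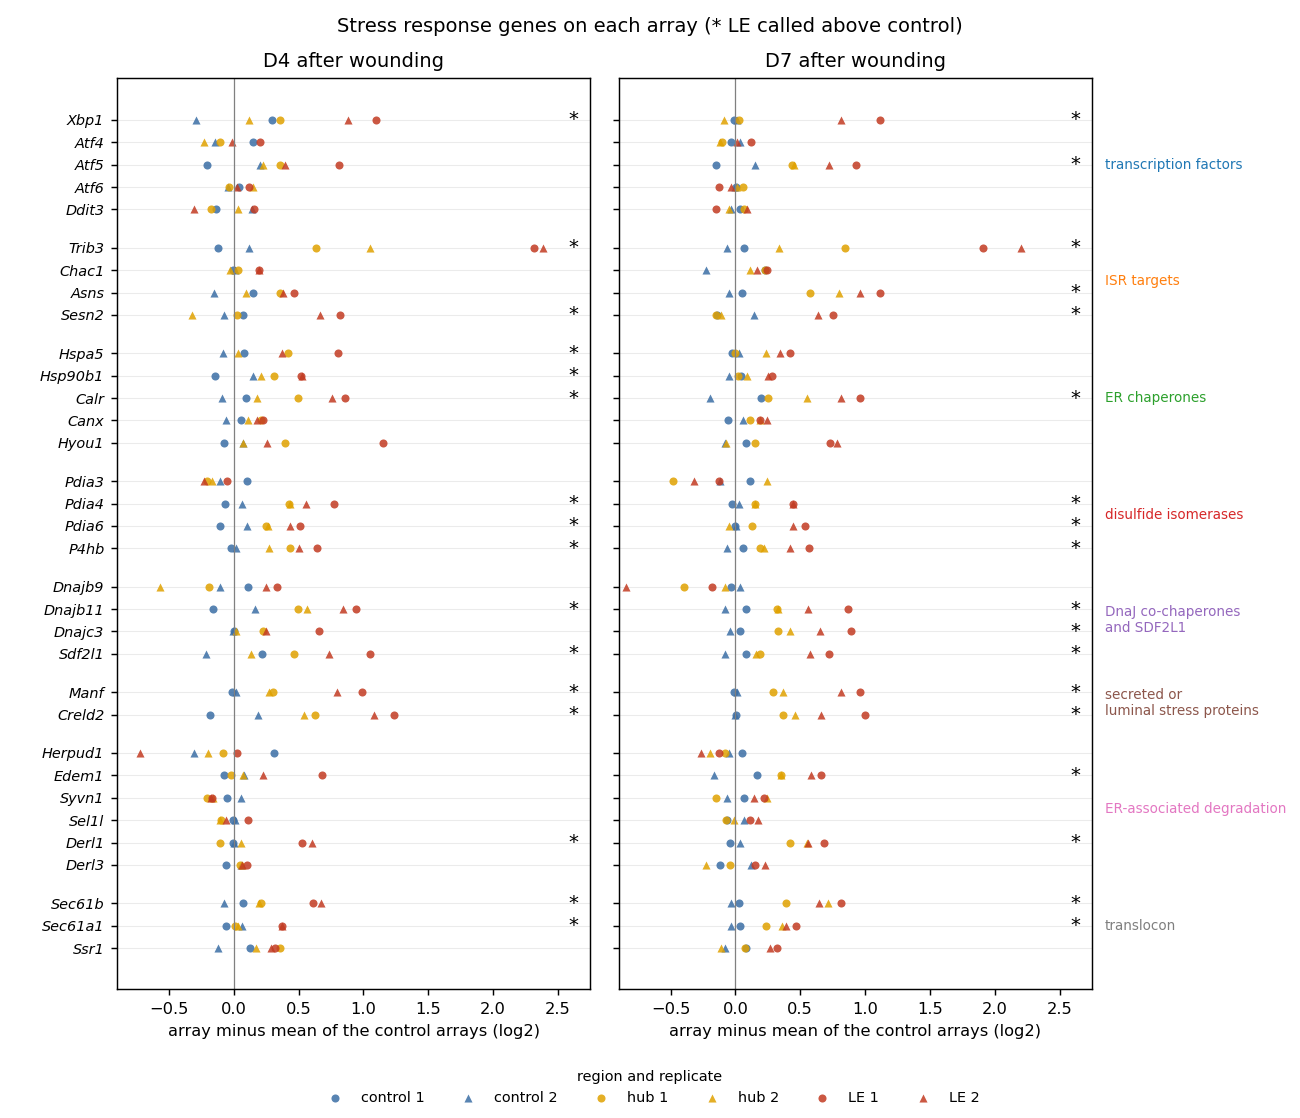
Each point is 1 array, as its value minus the mean of the control arrays of that day (log2, x axis), for the 33 genes grouped by role (ISR, integrated stress response), with D4 left and D7 right and an asterisk where the LE was called above control. The LE points lie to the right of the control points for the 16 and 18 called genes, and Trib3 lies farthest to the right.

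Of the 5 transcription factors, Xbp1 was called in the LE at both times and Atf5 at D7, whereas Atf4, Ddit3 and Atf6 were not called in any comparison. Xbp1 encodes the factor that IRE1 activates by splicing. At D4 Xbp1 read 9.42 and 9.21 in the LE, 8.68 and 8.44 in the hub and 8.62 and 8.03 in control. At D7 Xbp1 read 8.09 and 7.79 in the LE, 7.004 and 6.89 in the hub and 6.97 and 6.99 in control. Both LE arrays lay above all others of the day, and the hub overlapped control. Xbp1 rose in the LE by 0.99 log2 units (1.98-fold, adjusted p = 0.00693, SE 0.19) at D4 and 0.96 (1.95-fold, adjusted p = 0.00802, SE 0.19) at D7. Without LE D4 replicate 1 and LE D7 replicate 1 these adjusted p were 0.0508 and 0.0754. In the hub the difference was 0.24 at D4 and -0.03 at D7. The other 3 probe sets of Xbp1 lay 0.71 to 1.06 above control in the LE at D4 and 0.90 to 1.26 at D7. When every probe set was tested, the one at 0.71 was not called at D4 (adjusted p = 0.234). At D7 the one at 0.95 was not called (adjusted p = 0.0511), and the others were called.

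ATF5 is a factor related to ATF4 and is likewise translated under stress. At D4 Atf5 read 6.98 and 6.56 in the LE, 6.52 and 6.39 in the hub and 5.96 and 6.37 in control. At D7 Atf5 read 5.89 and 5.69 in the LE, 5.40 and 5.41 in the hub and 4.81 and 5.11 in control. The regions did not overlap at either time, and the order was LE, hub, control. The LE was higher by 0.82 (adjusted p = 0.0135, SE 0.18) at D7, and by 0.60 (adjusted p = 0.051, SE 0.18) at D4, which was not called. The D7 call was lost without LE D7 replicate 1 (adjusted p = 0.104) or control D7 replicate 1 (0.0951).

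Atf4, the central factor of the integrated stress response, was among the brighter members and differed little between regions. At D4 Atf4 read 10.21 and 9.99 in the LE, 9.90 and 9.78 in the hub and 10.15 and 9.86 in control. At D7 Atf4 read 8.90 and 8.79 in the LE, 8.67 and 8.66 in the hub and 8.74 and 8.81 in control. LE and control overlapped at both times, with a difference of 0.09 (95% interval -0.19 to 0.38) at D4 and 0.07 (-0.21 to 0.35) at D7. Ddit3, whose product CHOP is induced under lasting ER stress, was not called either. At D4 Ddit3 read 8.14 and 7.68 in the LE, 7.81 and 8.01 in the hub and 7.84 and 8.12 in control. At D7 Ddit3 read 6.48 and 6.72 in the LE, 6.69 and 6.58 in the hub and 6.67 and 6.60 in control. All regions overlapped, and the LE differed from control by -0.07 (95% interval -0.45 to 0.30) at D4 and -0.03 (-0.41 to 0.35) at D7. Atf6 read close to the array median, at 0.20 above it at D4 and 0.06 below it at D7, and differed by -0.08 to 0.07 between LE and control.

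The targets of the integrated stress response held the largest change of the 33 genes. Trib3 encodes a pseudokinase induced by ATF4 and CHOP. At D4 Trib3 read 8.59 and 8.66 in the LE, 6.91 and 7.33 in the hub and 6.16 and 6.39 in control. At D7 Trib3 read 6.34 and 6.63 in the LE, 5.28 and 4.77 in the hub and 4.50 and 4.37 in control. The 3 regions were separate at both times, with the hub between LE and control. Trib3 rose in the LE by 2.35 (5.10-fold, adjusted p = 7.29e-05, SE 0.19) at D4 and 2.05 (4.15-fold, adjusted p = 0.000222, SE 0.19) at D7, and both calls held in all 12 fits that left out 1 array. In the hub it differed from control by 0.84 (adjusted p = 0.128) and 0.59 (adjusted p = 0.229), which was not called. The LE exceeded the hub by 1.51 (2.84-fold, adjusted p = 0.00246, SE 0.19) at D4 and 1.46 (2.76-fold, adjusted p = 0.00624, SE 0.19) at D7, the latter with an adjusted p of 0.0513 without hub D7 replicate 2.

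The methods of the study used a threshold above 2-fold in each replicate. In either direction Trib3 passed it in the LE against control at D4, where 3.82% of all genes did, and Trib3 and Asns passed it at D7 (3.34%). For Asns this rests on setting arrays of the same number against each other, and over every pair of arrays Trib3 alone passed at D7. Against the hub Trib3 alone of the members passed it at D4 (1.78%) and D7 (1.16%). No member passed it in the hub against control, at D4 (0.445%) or D7 (0.509%).

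Asns encodes asparagine synthetase, whose promoter carries the composite site printed above. At D4 Asns read 10.18 and 10.09 in the LE, 10.07 and 9.81 in the hub and 9.87 and 9.56 in control. At D7 Asns read 9.35 and 9.20 in the LE, 8.81 and 9.03 in the hub and 8.28 and 8.18 in control. The regions were separate at D7, while at D4 the LE lay narrowly above a hub that overlapped control. Asns rose in the LE at D7 by 1.04 (2.05-fold, adjusted p = 0.00138, SE 0.14), and this call held in all 12 fits without 1 array. At D4 the difference was 0.42 (adjusted p = 0.0838, SE 0.14). In the hub at D7 it was 0.69 (adjusted p = 0.0688), the largest difference of any member there, and was not called. The change between the days, 0.62 (SE 0.20), was not called either (adjusted p = 0.454).

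Sesn2 encodes sestrin 2, a stress protein that restrains mTORC1. At D4 Sesn2 read 9.08 and 8.93 in the LE, 8.28 and 7.94 in the hub and 8.34 and 8.19 in control. At D7 Sesn2 read 7.99 and 7.88 in the LE, 7.09 and 7.13 in the hub and 7.09 and 7.38 in control. LE arrays were above all others and the hub overlapped control. Sesn2 rose in the LE by 0.75 (adjusted p = 0.00753, SE 0.14) at D4 and 0.70 (adjusted p = 0.0106, SE 0.14) at D7. The adjusted p was 0.0517 at D4 without LE D4 replicate 1, and at D7 0.0806 without LE D7 replicate 1 and 0.0782 without control D7 replicate 1. Its second probe set lay higher in the LE by 0.96 and 0.86. The last target, Chac1, whose product degrades glutathione, read below the array median, with LE differences of 0.20 and 0.21 that were not called.

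**Figure D2:**
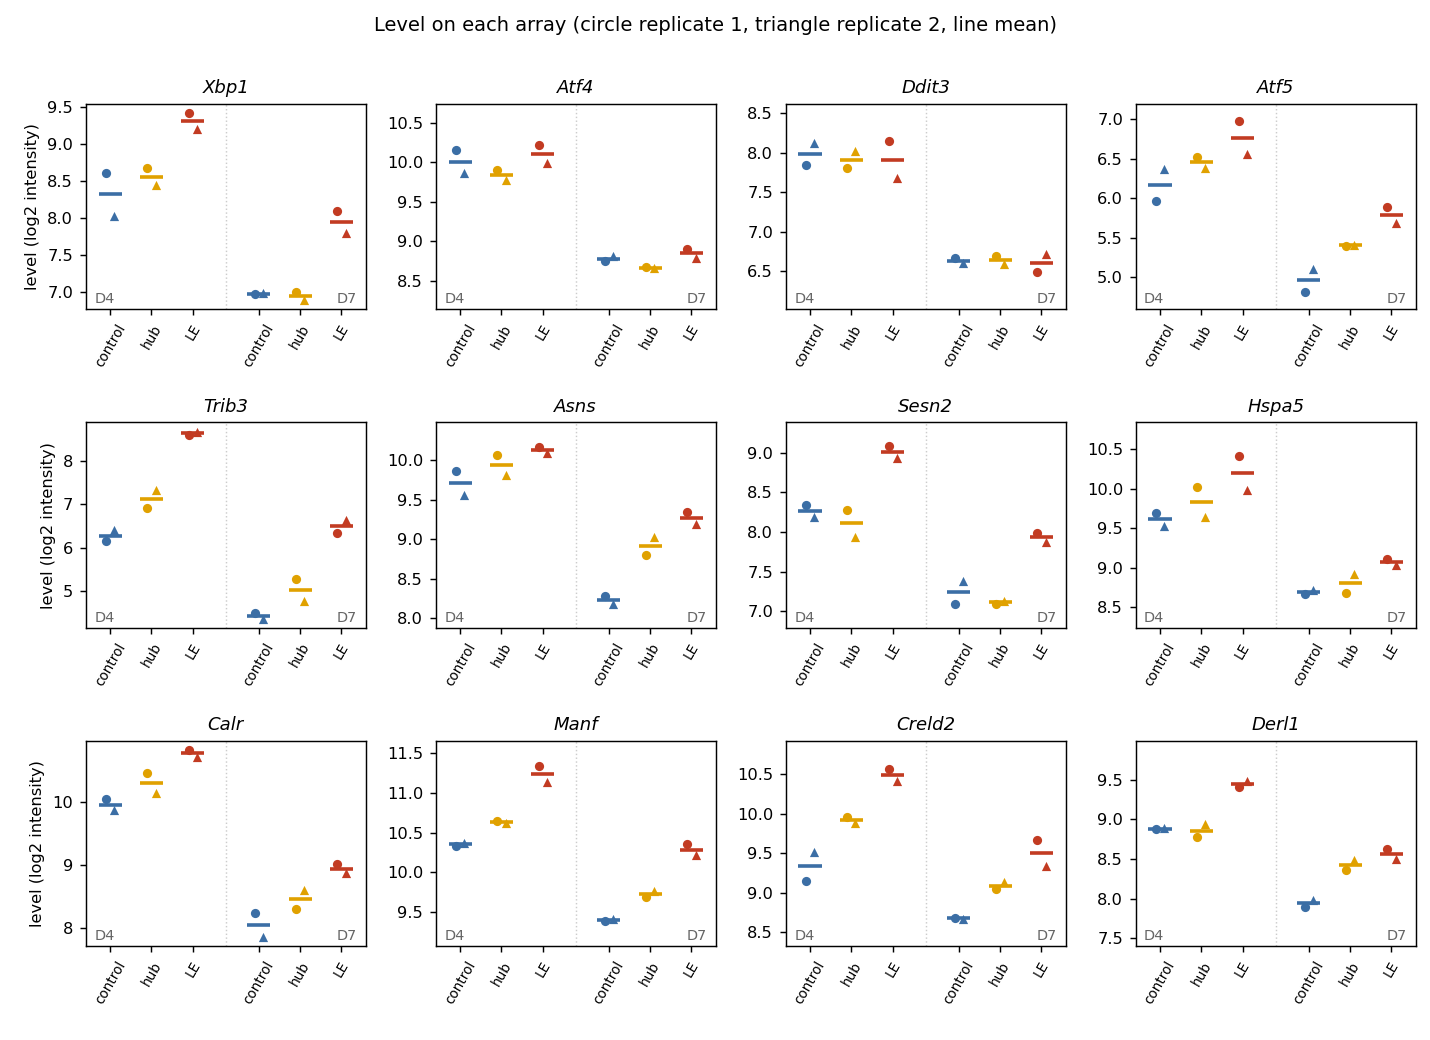
Log2 intensity (y axis) of 12 of the genes on each array, by region and day, with a circle for replicate 1, a triangle for replicate 2 and a line at the mean of the 2 arrays. Each panel has its own y range. Trib3, Sesn2 and Manf show both LE arrays above all others of the day, whereas Atf4 and Ddit3 overlap between LE and control.

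Among the 5 ER chaperones, the LE was above control in all 5 at both times (56.5% and 54.2% of all genes). Their median was 0.59 at D4 and 0.38 at D7 on the log2 scale. At D4 3 were called and at D7 1, beside 8.3% and 9.25% of all genes called higher. Hspa5 encodes BiP, the main ER chaperone and a common readout of the unfolded protein response. At D4 Hspa5 read 10.41 and 9.99 in the LE, 10.03 and 9.64 in the hub and 9.70 and 9.53 in control. At D7 Hspa5 read 9.11 and 9.04 in the LE, 8.69 and 8.93 in the hub and 8.67 and 8.72 in control. The LE arrays exceeded control at both times, and at D4 LE replicate 2 overlapped the hub. Hspa5 was called in the LE at D4 by a narrow margin (0.59, 1.50-fold, adjusted p = 0.0472, SE 0.17), and not at D7 (0.38, adjusted p = 0.183). In 9 of the 12 fits without 1 array the D4 value was no longer called, with an adjusted p of up to 0.278 without LE D4 replicate 1. Its second, dimmer probe set lay 0.92 and 0.49 above control in the LE. When every probe set was tested, it was called at D4 (adjusted p = 0.00402) and not at D7 (0.0682). Against the hub it was called at D4 (0.71, adjusted p = 0.0315) and not at D7 (0.31).

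Calr encodes calreticulin, a lectin chaperone of glycoproteins. At D4 Calr read 10.82 and 10.72 in the LE, 10.46 and 10.14 in the hub and 10.05 and 9.87 in control. At D7 Calr read 9.02 and 8.87 in the LE, 8.31 and 8.61 in the hub and 8.25 and 7.86 in control. The regions were separate at both times, in the order LE, hub, control. Calr rose by 0.81 (adjusted p = 0.0105, SE 0.17) at D4 and 0.89 (adjusted p = 0.00676, SE 0.17) at D7. The adjusted p rose to 0.061 at D4 without LE D4 replicate 1 and to 0.0633 without control D4 replicate 2. At D7 it was 0.0616 without LE D7 replicate 1 and 0.0548 without control D7 replicate 2. Hsp90b1, the gene for GRP94, was called at D4 (0.52, adjusted p = 0.0138, SE 0.11) and had an adjusted p of 0.0575, 0.0546 and 0.0906 without LE D4 replicate 1, LE D4 replicate 2 and control D4 replicate 1. At D7 it differed by 0.27 (adjusted p = 0.164). Canx, the membrane-bound partner of calreticulin, differed by 0.20 and 0.22, which was not called. Its second, dimmer probe set differed by 0.25 at D4 and 0.58 at D7, the latter called when every probe set was tested (adjusted p = 0.0243). Hyou1, an exchange factor for BiP, differed by 0.71 (adjusted p = 0.0879, SE 0.24) and 0.76 (adjusted p = 0.0647, SE 0.24), not called, and its LE arrays at D4 read 10.03 and 9.13. Its other 2 probe sets, when every probe set was tested, were called in the LE at D4 (0.76 and 0.98) and D7 (0.66 and 0.81).

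The protein disulfide isomerases form and rearrange disulfide bonds in the ER, and 3 of 4 were called in the LE at both times. Of all genes 8.3% were called higher at D4 and 9.25% at D7. At D4 Pdia4 read 9.87 and 9.65 in the LE, 9.52 and 9.52 in the hub and 9.03 and 9.16 in control. At D7 Pdia4 read 8.80 and 8.80 in the LE, 8.51 and 8.51 in the hub and 8.33 and 8.39 in control. The 3 regions were separate at both times. Pdia4 rose by 0.66 (adjusted p = 0.00248, SE 0.10) at D4, which held in all 12 fits, and by 0.44 (adjusted p = 0.0186, SE 0.10) at D7. Its D7 call was lost without any 1 of LE D7 replicates 1 and 2 (adjusted p = 0.0925 and 0.0776) and control D7 replicates 1 and 2 (0.0938 and 0.0653). P4hb rose by 0.57 and 0.50, with adjusted p of 0.00679 and 0.0141, and the D7 call was lost without LE D7 replicate 1 (0.105) or control D7 replicate 2 (0.0922). Pdia6 rose by 0.47 and 0.49 (adjusted p = 0.0174 and 0.015). It was not called at D4 without LE D4 replicate 1 (0.086) or control D4 replicate 1 (0.112), nor at D7 without LE D7 replicate 1 (0.101), control D7 replicate 1 (0.0711) or control D7 replicate 2 (0.0673). With the mean of its 2 probe sets Pdia6 was not called at either time, since the dimmer one differed by 0.09 and 0.05. The single probe set of Pdia3 read below the array median at D4 on average and had differences of -0.14 and -0.22, not called.

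Dnajb11 and Dnajc3 encode DnaJ co-chaperones of BiP, and Sdf2l1 a partner of Dnajb11. At D4 Dnajb11 read 9.48 and 9.38 in the LE, 9.03 and 9.10 in the hub and 8.37 and 8.70 in control. At D7 Dnajb11 read 8.67 and 8.36 in the LE, 8.12 and 8.13 in the hub and 7.88 and 7.72 in control. The regions did not overlap, and Dnajb11 rose in the LE by 0.89 (adjusted p = 0.00256, SE 0.14) at D4 and 0.71 (adjusted p = 0.00855, SE 0.14) at D7. The D7 call was lost without LE D7 replicate 1 (adjusted p = 0.0769) or control D7 replicate 2 (0.0639). At D4 Sdf2l1 read 8.24 and 7.92 in the LE, 7.65 and 7.32 in the hub and 7.40 and 6.97 in control. At D7 Sdf2l1 read 7.09 and 6.94 in the LE, 6.55 and 6.52 in the hub and 6.45 and 6.28 in control. Hub and control overlapped at D4, while the LE was above both at the 2 times. Sdf2l1 rose by 0.89 (adjusted p = 0.00786, SE 0.17) and 0.65 (adjusted p = 0.034, SE 0.17). At D4 its adjusted p was 0.0595 without LE D4 replicate 1 and 0.0527 without control D4 replicate 2, and at D7 6 of the 12 fits did not call it, up to 0.183 without LE D7 replicate 1.

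Dnajc3 is also known as the PERK inhibitor p58IPK. At D4 Dnajc3 read 9.62 and 9.22 in the LE, 9.19 and 8.98 in the hub and 8.97 and 8.96 in control. At D7 Dnajc3 read 8.52 and 8.28 in the LE, 7.96 and 8.05 in the hub and 7.66 and 7.59 in control. The order was LE, hub, control at both times. Dnajc3 was called at D7 (0.77, adjusted p = 0.00747, SE 0.15), with an adjusted p of 0.0711 without LE D7 replicate 1 and 0.051 without control D7 replicate 2, and not at D4 (0.45, adjusted p = 0.0752). Its 4 dimmer probe sets differed by 0.08 to 0.84 at D4 and 0.10 to 0.82 at D7. When every probe set was tested, only the brightest of these was called, at D4 (0.84, adjusted p = 0.00329) and D7 (0.82, adjusted p = 0.00403). Dnajb9, another DnaJ protein, which dampens IRE1, did not follow the rest. Its LE difference was 0.29 at D4 and -0.51 at D7 (adjusted p = 0.48 and 0.152), and the change of -0.80 (SE 0.30) between the days was not called (adjusted p = 0.552).

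MANF and CRELD2 are luminal proteins that are secreted under ER stress, and both genes were called in the LE at both times. The share of all genes called higher was 8.3% at D4 and 9.25% at D7. At D4 Manf read 11.34 and 11.14 in the LE, 10.65 and 10.62 in the hub and 10.33 and 10.37 in control. At D7 Manf read 10.36 and 10.21 in the LE, 9.69 and 9.76 in the hub and 9.38 and 9.41 in control. The regions were clearly separate, with the hub nearer to control. Manf rose in the LE by 0.89 (1.85-fold, adjusted p = 0.000489, SE 0.10) at D4 and 0.89 (1.85-fold, adjusted p = 0.000617, SE 0.10) at D7, and both calls held in all 12 fits without 1 array. At D4 Creld2 read 10.57 and 10.41 in the LE, 9.97 and 9.88 in the hub and 9.15 and 9.52 in control. At D7 Creld2 read 9.68 and 9.34 in the LE, 9.04 and 9.14 in the hub and 8.69 and 8.67 in control. The order was again LE, hub, control. Creld2 rose in the LE by 1.16 (2.23-fold, adjusted p = 0.000862, SE 0.15) at D4, which held in all 12 fits, and 0.83 (1.77-fold, adjusted p = 0.00556, SE 0.15) at D7, with an adjusted p of 0.0557 without LE D7 replicate 1. In the hub Creld2 differed by 0.59 (adjusted p = 0.157) and 0.41 (adjusted p = 0.27), and Manf by 0.29 (0.319) and 0.33 (0.21), none of them called.

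ER-associated degradation returns misfolded proteins to the cytosol, and of its 6 genes Derl1 was called at D4 and Derl1 and Edem1 at D7. Edem1 encodes a lectin that targets glycoproteins for degradation. At D4 Edem1 read 9.37 and 8.92 in the LE, 8.67 and 8.76 in the hub and 8.61 and 8.77 in control. At D7 Edem1 read 8.22 and 8.14 in the LE, 7.91 and 7.90 in the hub and 7.72 and 7.39 in control. A second, dimmer probe set of Edem1 differed in the LE from control by 0.38 at D4 and 0.21 at D7, and from the hub by -0.10 at D7, none called. With the brightest probe set the regions were separate at D7, where the LE was higher by 0.62 (adjusted p = 0.0273, SE 0.16). That call was lost without LE D7 replicate 1 (adjusted p = 0.141), LE D7 replicate 2 (0.0858) or control D7 replicate 2 (0.174), and at D4 the difference was 0.45 (adjusted p = 0.0957). Derl1, a part of the retrotranslocation channel, rose by 0.57 (adjusted p = 0.00595, SE 0.10) at D4 and 0.62 (adjusted p = 0.00394, SE 0.10) at D7, and both calls held in all 12 fits. When every probe set was tested, a dimmer one of Derl1 was also called in the LE (0.61 at D4 and 0.63 at D7). The dimmest was not called (0.59, adjusted p = 0.147, and 0.42, adjusted p = 0.306). With the brightest probe set, Derl1 differed in the hub by -0.03 at D4 and 0.49 (adjusted p = 0.081) at D7. The LE exceeded the hub by 0.59 (adjusted p = 0.0116) at D4 and by 0.14 (adjusted p = 0.602) at D7. Without hub D4 replicate 1 the D4 value had an adjusted p of 0.0787. The ubiquitin ligase subunits Syvn1 and Sel1l, the derlin Derl3 and Herpud1, a ligase cofactor often used as a marker of ER stress, were not called, and their LE differences ranged from -0.35 to 0.08 at D4 and from -0.20 to 0.19 at D7. Herpud1 was the lowest of them, at -0.35 (SE 0.24) and -0.20 (SE 0.24), but its dimmer probe set differed by -0.04 and 0.16. The dimmer probe sets of Sel1l differed by -0.20 to 0.62 at D4 and -0.05 to 0.28 at D7, and that of Syvn1 by 0.19 and 0.46. None of these was called when every probe set was tested.

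The translocon carries new chains into the ER. At D4 Sec61b read 10.51 and 10.57 in the LE, 10.11 and 10.09 in the hub and 9.97 and 9.83 in control. At D7 Sec61b read 9.51 and 9.33 in the LE, 9.08 and 9.41 in the hub and 8.72 and 8.66 in control. The regions were separate at D4, and at D7 LE and hub overlapped above control. Sec61b rose in the LE by 0.64 (adjusted p = 0.00815, SE 0.13) at D4, with an adjusted p of 0.0548 without control D4 replicate 2, and by 0.73 (adjusted p = 0.00441, SE 0.13) at D7, which held in all 12 fits. Sec61a1, the channel subunit, rose by 0.37 (adjusted p = 0.0311) and 0.43 (adjusted p = 0.017). Its D4 call was lost in 6 of 12 fits, up to 0.165 without control D4 replicate 1, and its D7 call in 4, up to 0.107 without LE D7 replicate 1. Ssr1, a subunit of the translocon-associated protein complex, differed by 0.30 and 0.29, not called. Its dimmer probe sets differed by -0.51 to 0.40 at D4 and 0.06 to 0.65 at D7. When every probe set was tested, only the brightest of these was called, at D7 (0.65, adjusted p = 0.0147).

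Between the 2 times most LE changes had the same sign. All but 3 of the 33 genes had the same sign at D4 and D7 (30 of 33, against 69% of all genes), and the changes correlated across members with Pearson's r of 0.875, beside 0.786 across all genes. This is a description over genes that share arrays, not a test. Trib3 (2.35 and 2.05) lies far from the other members and weighs heavily on their r, which was not computed without it. The change of the LE difference between days was called for 0 of 33 members in limma (0.0292% of all genes), with an unadjusted p under 0.05 for 1 member upwards (3.98% of all genes) and 1 downwards (656 of all 17097 genes) and a smallest adjusted p of 0.454. For the hub it was 0 of 33 (0% of all genes), with 2 members higher at an unadjusted p under 0.05 (2.49% of all genes) and a smallest adjusted p of 0.999. In the LE 14 genes were called at both times, Hspa5 and Hsp90b1 at D4 alone, and Atf5, Asns, Dnajc3 and Edem1 at D7 alone. The difference between the days was not called for any of these 6. Of all genes 8.3% were called higher at D4 and 9.25% at D7, and the share called at both times was not counted. With 2 arrays per group, the lack of calls between days does not show that the changes were equal.

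**Figure D3:**
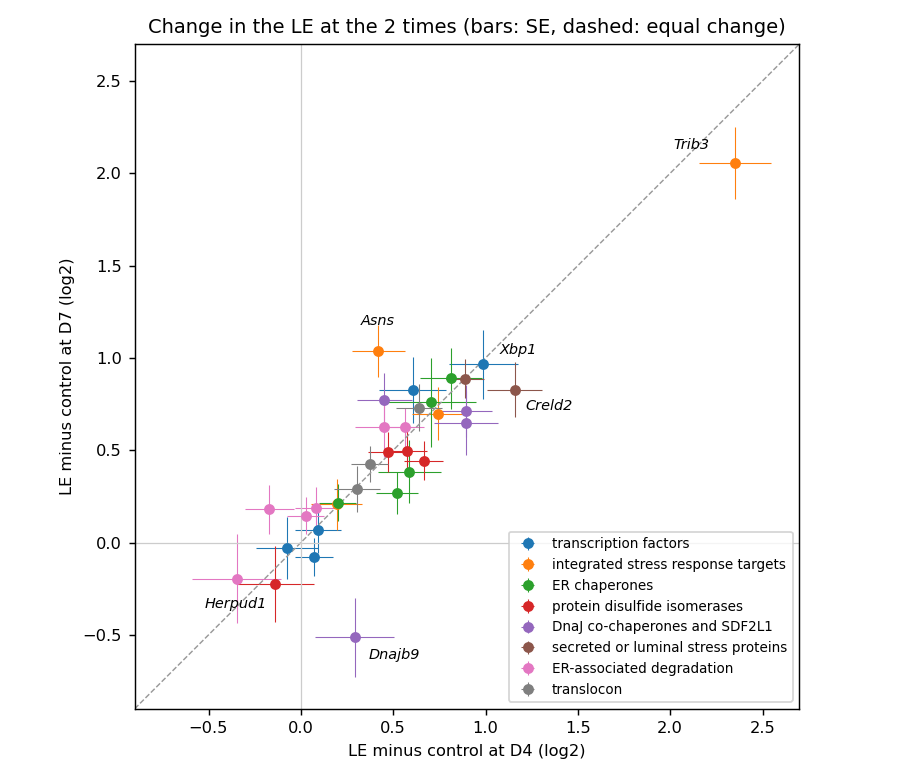
Log2 difference between LE and control at D4 (x axis) and D7 (y axis) for the 33 genes, coloured by role, with SE bars and a dashed line of equal change. Most genes lie near the line, Asns lies above it (0.42 and 1.04) and Dnajb9 below it (0.29 and -0.51), and neither change between days was called.

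The other genes of the pathway were followed in 6 lists of 104 genes, of which 94 were measured. In the LE at D4 32 of these were called higher and 4 lower, and at D7 35 higher and 2 lower, with a median of 0.30 and 0.35. Over all genes 8.3% were higher and 5.83% lower at D4 and 9.25% and 5.37% at D7, which is the background for the counts of each list. Of 10 sensors, eIF2α kinases and phosphatase subunits, 0 were called in the LE at D4 (limma, adjusted) and 1 was lower at D7, with medians of -0.07 and 0.15. The gene called was Ppp1r15a, for the GADD34 subunit that reverses eIF2α phosphorylation, which fell by 0.71 on the log2 scale at D7 (adjusted p = 0.00932, SE 0.14) and differed by -0.35 (adjusted p = 0.152) at D4.

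Of 22 further targets of ATF4 and CHOP, 8 rose and 3 fell at D4, while 9 rose and 1 fell at D7. Nupr1, a stress-induced chromatin protein, rose by 1.86 (adjusted p = 0.000688, SE 0.23) at D4 and 1.88 (adjusted p = 0.000791, SE 0.23) at D7. Ddit4, whose product REDD1 inhibits mTORC1, rose by 1.87 (adjusted p = 0.00048) and 1.40 (adjusted p = 0.00268). Ero1a, the oxidase that drives disulfide formation, rose by 1.31 and 1.21, and Eif4ebp1, a repressor of translation initiation, by 1.30 and 1.29. The genes that fell, named after their values were seen, were Atf3 at both times (-0.65 and -0.80), the serine synthesis enzyme Phgdh (-0.92) and the C/EBP factor Cebpg (-0.46) at D4. In the hub Ddit4 was called at D4 (1.29) and Eif4ebp1 (0.83) and Gars (0.57), the glycyl-tRNA synthetase, at D7, also named after its value was seen, and these 3 were the only genes of the 6 lists called there.

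Of 17 further ER folding factors, 6 rose and 1 fell at D4, while 5 rose and 0 fell at D7. Erp44, which retains proteins in the early secretory pathway, rose by 1.39 (adjusted p = 0.000165, SE 0.13) and 0.97 (adjusted p = 0.00139, SE 0.13). Txndc5, a disulfide isomerase, rose by 1.00 and 1.14. The gene lower at D4 was Sdf2 (-0.59, adjusted p = 0.0446), a relative of Sdf2l1 that was named after its value was seen. Of 19 further genes of translocation and glycosylation, 6 were higher at D4, 8 at D7 and 0 lower, led by Sec11c, a catalytic subunit of signal peptidase, at 1.81 and 1.42. Of 9 further genes of ER-associated degradation, 3 were higher at D4, 5 at D7 and 0 lower, led by Derl2 at 0.67 and 0.90.

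Of 17 genes of ER export and retrieval, 9 were higher at D4, 8 at D7 and 0 lower. Kdelr3, a receptor that returns ER proteins from the Golgi, rose by 2.16 (adjusted p = 0.000307, SE 0.23) and 1.96 (adjusted p = 0.000633, SE 0.23). Sec24d, a cargo adaptor of COPII vesicles, rose by 1.83 and 1.79, and the coat subunit Sec23b by 1.18 and 0.57. Kdelr3 also exceeded the hub, by 1.64 at D4 and 1.41 at D7, and Sec24d by 1.42 and 0.96, all called.

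**Figure D4:**
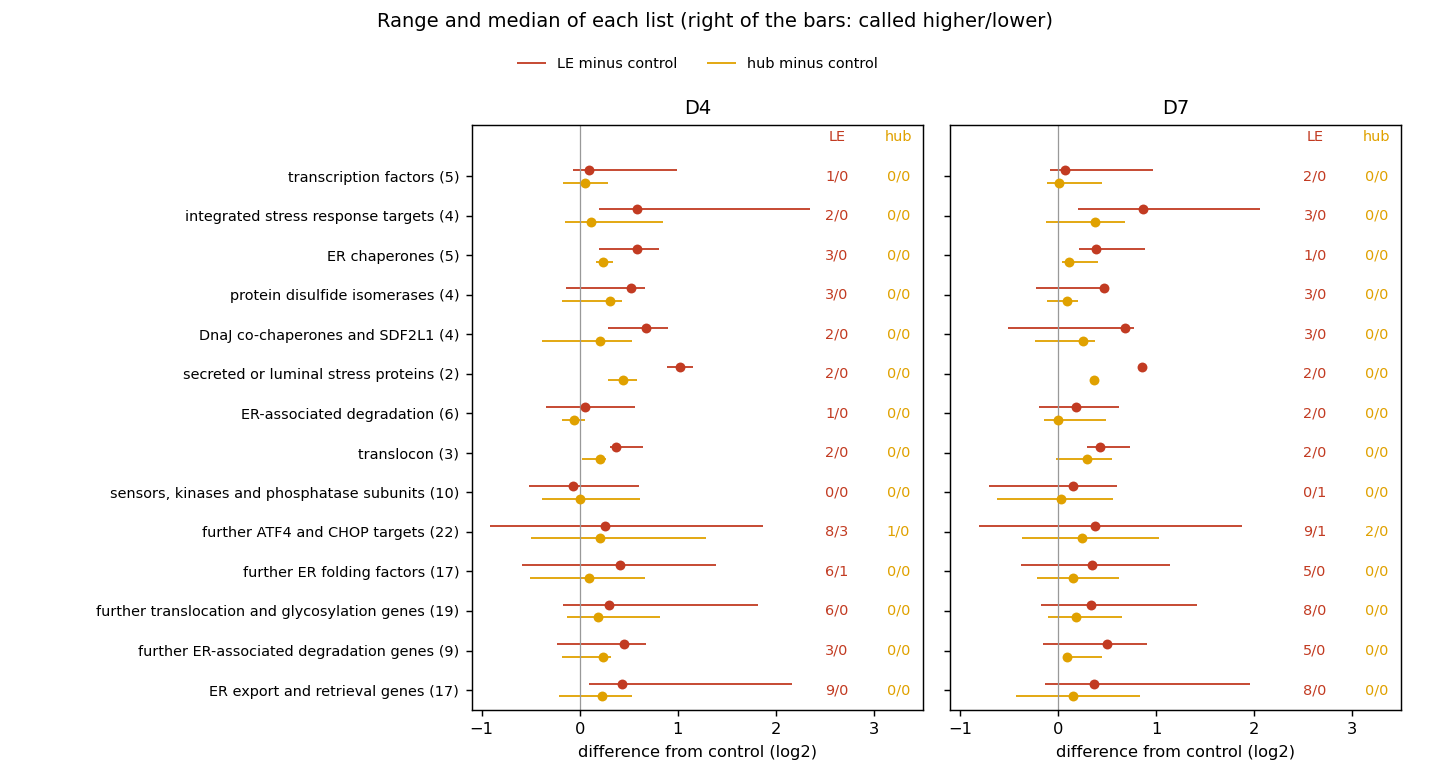
Range (line) and median (point) of the log2 difference between each wound region and control, at D4 and D7, for the 8 role groups of the 33 genes and the 6 lists of other pathway genes, with the number measured in parentheses and the numbers called higher and lower at the right. The LE medians lie above the hub medians in all 14 rows at D7 and in all but the sensors at D4.

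Markers of other cells were read beside these results. Over all genes 8.3% were called higher and 5.83% lower in the LE at D4, and 9.25% and 5.37% at D7. Of 7 basal keratinocyte markers, Itga6, the antigen of the sort, was higher in the LE at D4 (0.42, adjusted p = 0.0327) and Dst lower at both times (-1.06 and -0.89). Of 8 suprabasal markers, Calm4, Krt1 and Krt10 were called lower in the LE at D4 (-0.82, -0.77 and -0.69) and 0 were called at D7. Ivl alone lay above control at D4 (0.72, not called), at 8.66 and 7.98 in the LE and 7.73 and 7.47 in control. The log2 of the summed level, which weighs the brightest genes most, was 13.5 to 13.7 in the LE and 14.1 on both control arrays at D4. Of 6 bulge markers, Krt15 was called lower at both times (-2.48 and -1.88) and Sox9 at D4 (-0.61). Lgr5 (1.03) and Cd34 went the other way in the LE at D4. Neither was called, but both were higher at an unadjusted p under 0.05 (15.1% of all genes). Lgr5 read 4.89 and 5.88 in the LE and 4.31 and 4.39 in control. Of 5 sebocyte markers Pparg was called higher at D4 (1.20), while Scd1 was the lowest there (-0.73, not called). Of 7 fibroblast markers Dcn was called lower at D7 (-2.59). Of 9 leukocyte markers Cd68 was higher at D4 (1.14, adjusted p = 0.0368), with a summed level of 8.17 to 8.58 in the LE and 8.19 to 8.37 in control, and Ptprc, Cd3e, Lyz2, Cd207 and Fcer1g below the array median throughout. Plasma cells use the unfolded protein response heavily, and of their 5 markers measured, 1 of which is the member Derl3, 0 were called in limma (2 higher in the LE at D4 at an unadjusted p under 0.05), with a summed level of 7.49 to 7.97 in the LE and 7.34 to 7.37 in control at D4 and 6.20 to 6.26 and 5.94 to 6.07 at D7. Prdm1 moved most, with 6.94 and 5.78 in the LE and 5.47 and 5.36 in control at D4 (0.94, adjusted p = 0.102), and Jchain, Tnfrsf17 and Pou2af1 lay below the array median on every array. Of 5 endothelial markers all 5 were above control in the LE at D7 (54.2% of all genes) and Cdh5 was called (2.03, adjusted p = 0.027). Their summed level at D7 was 8.05 to 8.33 in the LE, 6.89 to 7.14 in the hub and 6.86 to 7.23 in control. At D4 it was 8.37 to 9.04, 7.97 to 8.64 and 7.56 to 9.11. Melanocyte markers were not called, with a summed level of 7.92 to 8.11 in the LE, 8.32 to 11.1 in the hub and 8.33 to 10.0 in control at D4. The part of these cells in the stress gene values was not tested.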

How the data were processed

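Basal epidermal cells of CD1 mouse tail skin were profiled on 12 arrays, 2 for each of 6 groups. The authors deposited log2 intensities of Affymetrix mouse PM strip arrays, which they had computed by RMA. The software version is not given in the sources used. Sorted cells (300 per sample) gave cDNA that was amplified over 25 cycles, which can alter relative levels. Of 45141 probe sets, 104 were controls, 28898 were paired with 1 gene (28689 matched by identifier, 0 symbols changed), 551 with several and 15588 with none. Each gene was read by the brightest of its probe sets (by the mean of all arrays), with no filter on dim probe sets.

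The members and all lists were chosen with earlier results of these data known. All 6 groups entered 1 model in limma 3.58.1 (R 4.3.3), with 6 residual degrees of freedom and Benjamini-Hochberg adjustment over 17097 genes. The number of arrays limits the precision. Values on every array are given for Hspa5, Xbp1, Atf4, Ddit3 and the 14 called members with the largest called change. Of each list of other pathway genes at most 4 called genes with the largest change are named, apart from those said to be named later. Lists of basal, suprabasal, bulge, sebocyte, fibroblast, leukocyte, plasma cell, endothelial and melanocyte markers were also read. Alternatives were 2 further scalings, the mean of all probe sets, each probe set, a filter on dim genes, the arrays of 1 day, array weights, a trended and robust prior, a replicate block and leaving out each array. The procedure was tested on simulated data. Promoter windows were read from RefSeq.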

Additional observations from a re-analysis of the deposited data

Results flagged for a closer look

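For 5 of the stress response genes the response differed between the wound regions by a test of the difference itself, the LE against the hub within a day in limma. At D4 these were Trib3 (1.51, SE 0.19, adjusted p = 0.00246), Sesn2 (0.89, SE 0.14, adjusted p = 0.00767), Manf (0.60, SE 0.10, adjusted p = 0.0103) and Derl1 (0.59, SE 0.10, adjusted p = 0.0116), all as log2 differences with the LE higher. At D7 they were Xbp1 (1.00, SE 0.19, adjusted p = 0.0271), Trib3 (1.46, SE 0.19, adjusted p = 0.00624), Sesn2 (0.82, SE 0.14, adjusted p = 0.0194) and Manf (0.56, SE 0.10, adjusted p = 0.0249). In each of the 8 cases both LE arrays lay above both hub arrays. When every probe set was tested, the dimmer ones of Xbp1 lay 0.67, 1.13 and 0.94 above the hub at D7. Their adjusted p were 0.288, 0.135 and 0.0294, so only the last was called. The dimmer ones of Derl1 lay 0.53 and 0.17 above the hub at D4, neither called (adjusted p = 0.0658 and 0.87). Trib3 at D4 was called in all 12 fits without 1 array. Sesn2 and Manf at D4 were lost without LE D4 replicate 1 (adjusted p = 0.0582 and 0.0702) or hub D4 replicate 2 (0.0647 and 0.0809), and Derl1 without hub D4 replicate 1 (0.0787). With the arrays of the day alone, Sesn2 (adjusted p = 0.061), Manf (0.0698) and Derl1 (0.0683) at D4 were not called either, nor was Derl1 with the mean of its probe sets (0.111). At D7 Trib3 was lost without hub D7 replicate 2 (0.0513). Xbp1, Sesn2 and Manf at D7 were lost without any 1 of the 4 arrays of the comparison, up to adjusted p of 0.194, 0.15 and 0.178 without LE D7 replicate 1. The difference between D4 and D7 in the distance from LE to hub was not tested.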

How the results depend on the processing

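No called value changed direction under 8 alternatives with all arrays or in 12 fits without 1 array. Counts moved. With the arrays of the day alone, 10 members were called in the LE at D4 and 1 against the hub. With a trended and robust prior 8 were called against the hub at D4 and 2 in the hub at D7. The median LE change was 0.57 at D4 with the mean of all probe sets and 0.62 at D7 with genes above the median level alone, and 0.42 and 0.40 with quantile normalization over all arrays, which also gave 0.09 for the hub at D7 (0.15 as reported). At D7 1 member passed 2-fold when every array was set against every control array. Leaving out 1 array gave 8 to 18 calls in the LE at D4 and 6 to 19 at D7 (the 6 being 5 higher and Dnajb9 lower), 2 to 6 and 0 to 5 against the hub, and 0 in the hub. The medians then ranged from 0.10 to 0.22 for the hub at D4, from 0.09 to 0.19 for the hub at D7 and from 0.15 to 0.37 for the LE against the hub at D4. The cause was not tested. The replicate block kept all 42 calls and added 3. Differences of same-numbered replicates correlated at 0.17 to 0.245 at D4 and 0.0023 to 0.0666 at D7, so every pair passed 0.1 at D4 and none at D7, and the numbers were not taken as pairs in the model. The 2-fold threshold, as in the methods, does set same-numbered arrays against each other. Signal over background limits Atf6, Chac1, Derl3 and Pdia3, which read near the array median.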
